A study of Mus musculus with 6 samples.

Results

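IGHV1-72 is a variable (V) gene of the mouse immunoglobulin heavy-chain (Igh) locus, known as V186.2 from antibodies of C57BL/6 mice against the nitrophenyl hapten NP. Its sequences were taken as all those whose V call names IGHV1-72 first, with the allele ignored, and there were 5491 of them among 228609 sequences, or 2.40%. The data are VDJ-seq libraries, which read rearranged Igh genes from genomic DNA. The B cells came from spleens of 12-week-old C57BL/6 mice and were obtained by removing other cells on magnetic columns. In an input series, 4 libraries were made from increasing DNA amounts (500 ng, then 1 µg, 2.5 µg and lastly 5 µg). A further pair, Q5_Q5 and Q5_vent, differed by DNA polymerases, and the labels do not state how much DNA it started from. Each group had 1 library, and the labels say neither whether the libraries came from separate mice nor whether the mice were immunised. Since DNA was read, the cell type could not be checked by marker expression. The libraries held from 8704 sequences at 500 ng to 112320 at 5 µg. All intervals are 95% intervals that cover counting error only.

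A heavy chain is assembled by joining a D gene to a J gene and then a V gene to the DJ unit, with bases trimmed at the ends and untemplated (N) and palindromic (P) bases added. The joined region encodes CDR3, the most variable antigen-contacting loop. A join that keeps the reading frame and has no stop codon is productive; a B cell with an out-of-frame join on one chromosome carries a productive join on the other, so out-of-frame joins are read without any choice on the protein they would make. Antibodies against NP are known for joining IGHV1-72 to IGHD1-1 (DFL16.1) and IGHJ2, for a tyrosine, tyrosine, glycine, serine, serine stretch (YYGSS) in CDR3, and for a tryptophan-to-leucine change in codon 33 of the V gene that raises affinity.

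In the RefSeq annotation of GRCm38.p6 the gene lies on chromosome 12 from 115757984 to 115758277, the D gene from 113482170 to 113482192 and IGHJ2 from 113429468 to 113429515. The 2 V genes annotated on one side are Ighv1-71, 15.5 kb away, and Ighv1-70, 65.8 kb away, and those on the other are Ighv8-13, 7.06 kb away, and Ighv1-73, 32.3 kb away. Neither Ighv1-71 nor Ighv1-73 was called first in any sequence. If the caller's reference holds them, which no source used here states, this allows a share of up to 0.00131% each. Ighv8-13 had 13 sequences. Ighv1-70 had 638, of which 9.88% were productive and 66.5% out of frame, against 83.7% and 13.2% of IGHV1-72.

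The germline V sequences of IGHV1-72 and of IGHV1-53, the gene most often named beside it, are printed because they decide which sequences could be counted. Each was read from full-length sequences without a mismatch, 1072 for IGHV1-72 and 744 for IGHV1-53, and covers 294 bases. Capitals mark the 12 bases that differ between them.
IGHV1-72: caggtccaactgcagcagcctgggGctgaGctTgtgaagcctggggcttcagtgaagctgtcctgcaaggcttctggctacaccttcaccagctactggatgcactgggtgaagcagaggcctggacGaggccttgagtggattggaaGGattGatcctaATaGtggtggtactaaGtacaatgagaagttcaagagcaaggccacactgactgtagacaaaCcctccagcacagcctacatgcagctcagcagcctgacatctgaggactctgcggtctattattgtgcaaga
IGHV1-53: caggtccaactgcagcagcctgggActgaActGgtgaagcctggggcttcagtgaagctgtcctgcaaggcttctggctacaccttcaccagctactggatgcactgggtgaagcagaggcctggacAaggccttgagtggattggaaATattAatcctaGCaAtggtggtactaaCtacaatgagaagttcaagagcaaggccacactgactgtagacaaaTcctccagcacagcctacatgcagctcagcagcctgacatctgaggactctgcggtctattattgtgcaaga
IGHD1-1: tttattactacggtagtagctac
IGHJ2: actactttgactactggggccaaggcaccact
The D and J lines are the germline stretches of the partners known from antibodies against NP, read from the same alignments. Counted from 1 at the first V base, the last difference is C223T, with the IGHV1-72 base first. The 71 bases after it are the same in both genes.

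V alignments end at the join and reach back into the gene to varying positions, so a short one may not include base 223. All 5491 sequences called IGHV1-72 first had alignments that start at or before that base, with a median V alignment of 198 bases. A further 1095 sequences named IGHV1-72 after another gene. Over all calls that name IGHV1-72, first or later, 1084 also named IGHV1-53 and 1020 IGHV1S5. Of the 1095 that named it after another gene, 1083 (98.9%) started after base 223, and the median V alignment of the 1095 was 56 bases. They made up 16.6% of all sequences that name the gene, from 13.2% at 2.5 µg to 21.2% in Q5_Q5. Counting them would put the share of IGHV1-72 at 2.88% in place of 2.40%. Among sequences that reach base 223 there were 5491 of IGHV1-72 and 4026 of IGHV1-53, a ratio of 1.36, against 1.08 over all first calls. The short sequences were 85.2% productive.

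**Figure D1:**
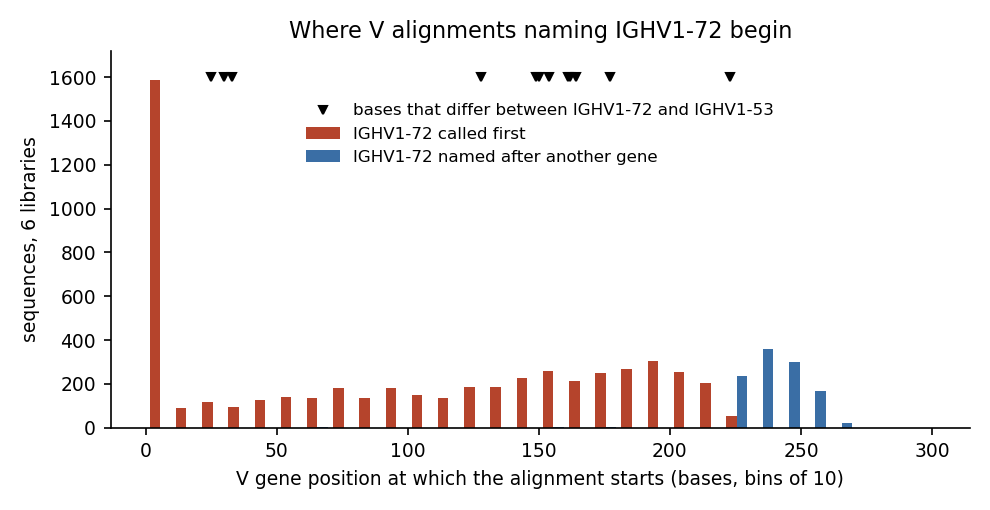
Number of sequences (vertical axis, 6 libraries pooled) by the V position at which the alignment starts (horizontal axis, bins of 10 bases), for sequences that call IGHV1-72 first and those that name it after another gene; triangles mark the 12 bases that differ from IGHV1-53. First calls end at the last triangle, base 223, and nearly all other calls lie beyond it.

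The first question was whether the level of IGHV1-72 varied with the amount of DNA or the polymerase. The 500 ng library had 203 IGHV1-72 sequences, or 2.33% (interval 2.04 to 2.67). With 1 µg of DNA there were 416 (2.44%), with 2.5 µg 1380 (2.46%) and with 5 µg 2695 (2.40%). In the polymerase pair, Q5_Q5 had 361 (2.40%) and Q5_vent 436 (2.24%). The mean was 2.38% ± 0.0826 (SD, 6 libraries), and the gene ranked between 6 and 9 among all V genes in every library. The ratio of shares was 1.03 for 5 µg over 500 ng (interval 0.894 to 1.19) and 1.07 for Q5_Q5 over Q5_vent (0.935 to 1.23). Neither interval excluded 1 or reached 1.5-fold, the rule by which 1 of 107 V genes (0.935%) stood apart in the input comparison and 0 of 84 (0%) in the polymerase comparison. With 1 library per group these comparisons have no replicate check and no p-value.

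In the order of mean shares IGHV1-72 was 8th of the V genes, between IGHV1-82 at 2.39% ± 0.169 and IGHV1-53 at 2.26% ± 0.0621 (SD, 6 libraries). The gap to IGHV1-82 was smaller than either spread, while IGHV1-53 was below IGHV1-72 in all 6 libraries. The short sequences described above are counted under IGHV1-53 and narrow that gap: the ratio of IGHV1-72 to IGHV1-53 was 1.00 to 1.09 in the libraries over all first calls, and 1.30 to 1.41 among sequences that reach base 223. The 5 V genes whose share lay closest to it over the libraries were IGHV8-8, IGHV1-53, IGHV1-18, IGHV1-82 and IGHV1-50, with mean absolute differences from 0.0891 to 0.213 points. IGHV1-26, the most used gene, averaged 5.08%.

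**Figure D2:**
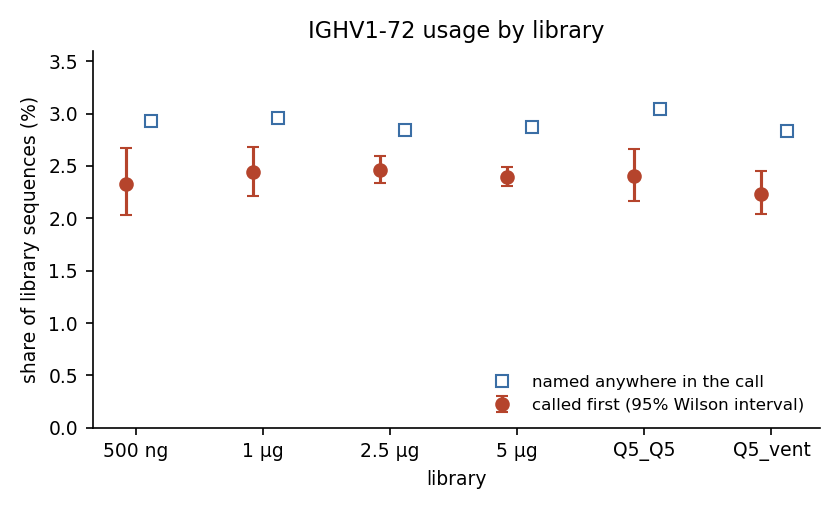
Share of each library's sequences (vertical axis, percent) for IGHV1-72 called first (filled, with 95% Wilson interval) and named anywhere in the call (open), in the 6 libraries. First calls lie between 2.24% and 2.46%, and every library is higher when all naming calls are counted.

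The second question was how many IGHV1-72 joins could make a heavy chain. Of the IGHV1-72 sequences, 4598 (83.7%, interval 82.7 to 84.7) were productive, 726 (13.2%) were out of frame and 167 (3.04%) were in frame but not productive. Other IGHV1 genes, 123309 sequences, had 80.1%, 16.2% and 3.70%. Along the input series from 500 ng to 5 µg, the productive share of IGHV1-72 was 79.3%, 86.5%, 83.0% and 84.2%, against 80.3%, 79.7%, 80.3% and 80.1% in other IGHV1 genes. It was 83.9% against 81.0% in Q5_Q5 and 82.8% against 79.7% in Q5_vent. It was higher in 5 of 6 libraries and lower at 500 ng, the library with the fewest sequences. The mean difference was 3.11 points ± 2.52 (SD), which an exact two-sided sign-flip permutation test over the 6 libraries put at p = 0.0625 (adjusted over 11 measures, 0.229). Against all other V genes the productive difference was 10.4 points, and against the mean of the other IGHV1 genes weighted equally it was 16.9 points. That mean includes IGHV1 genes with few productive joins. Single IGHV1 genes ran from 0.285% productive (IGHV1-27) to 91.6% (IGHV1-80), with a median of 82.5%. With V alignments of at least 150 bases the difference from other IGHV1 sequences was 1.956 points (exact permutation p = 0.219). The out-of-frame share was lower by a mean of 2.71 points, also in 5 of 6 libraries (exact permutation p = 0.0625, adjusted 0.229).

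The smallest p that 6 libraries allow is 0.03125, and a single measure among 11 at that p has an adjusted p of 0.344, so the adjusted threshold of 0.05 was out of reach for any one measure alone. Among the 115 V genes with at least 100 sequences, the odds of productive against out-of-frame joins were 1.95 times those of all other V genes for IGHV1-72 (interval 1.80 to 2.11). That passes a 1.5-fold rule which 48 of the 115 genes (41.7%) passed upward and 97 (84.3%) in either direction, so it does not set IGHV1-72 apart. Its productive share ranked 25 of 55 IGHV1 genes, whose median was 82.5%.

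**Figure D3:**
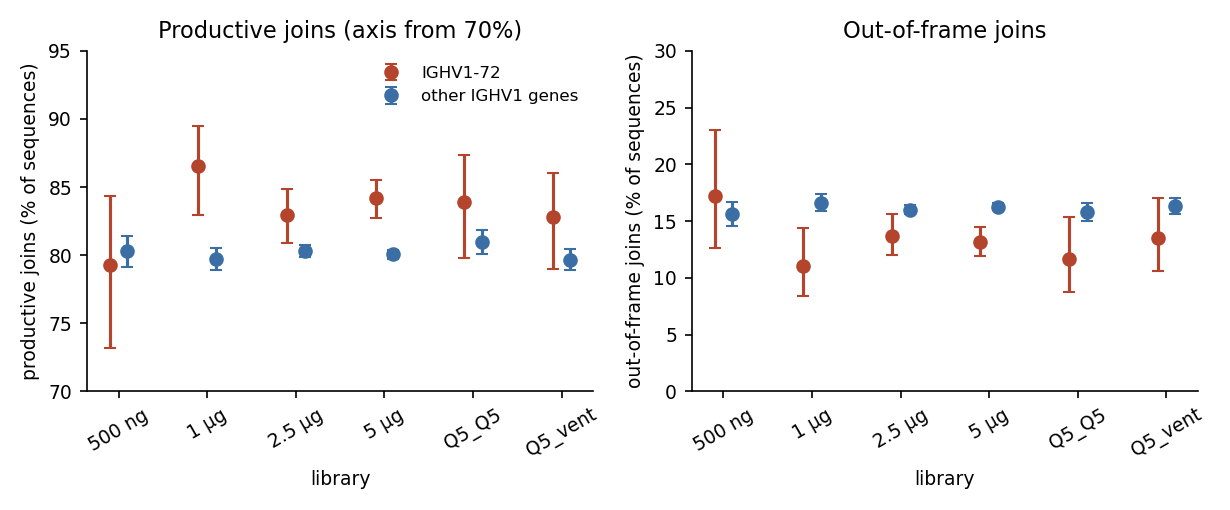
Productive (left, axis from 70%) and out-of-frame (right) joins as a percent of sequences in each library, for IGHV1-72 and for other IGHV1 genes, with 95% Wilson intervals. The IGHV1-72 point is above the other genes for productive joins in every library but the 500 ng one.

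IGHD1-1 was the D gene most often joined to IGHV1-72, in 43.2% of sequences with a D call, against 41.8% of other IGHV1 sequences. Its share in the libraries was 42.3%, 42.5%, 42.7% and 44.2% from 500 ng to 5 µg, 39.5% in Q5_Q5 and 42.3% in Q5_vent, and in other IGHV1 genes it ran from 41.5% to 42.3%. It was higher for IGHV1-72 in 5 of 6 libraries, by a mean of 0.467 points (exact permutation p = 0.469, adjusted 0.645). That mean was 0.0822 points without the 5 µg library and 1.00 without Q5_Q5, and it turned to -0.485 with single-gene D calls. IGHD2-4 followed with 13.3%, IGHD2-3 with 8.91% and IGHD4-1 with 6.55%, and IGHD2-5 and IGHD2-1 completed the 6 most frequent. No D gene was called in 283 sequences (5.15%).

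IGHJ2 was the most frequent J partner at 30.4%, as it was at 30.4% for other IGHV1 genes, with IGHJ4 at 28.8%, IGHJ3 at 22.1% and IGHJ1 at 18.7%. The pairing of IGHD1-1 with IGHJ2 held 13.6% of IGHV1-72 sequences with a D call and 13.6% of those of other IGHV1 genes (mean difference 0.112 points, exact permutation p = 0.781, adjusted 0.781). IGHD1-1 was joined unevenly to the J genes: it was in 56.4% of IGHV1-72 joins to IGHJ1, 44.1% to IGHJ2, 34.8% to IGHJ3 and 40.0% to IGHJ4. Other IGHV1 genes had 56.8%, 44.4%, 32.1% and 37.6% in the same order. IGHJ3, which was not among the 11 tested measures and was singled out after its values were seen, made up 20.5% of productive IGHV1-72 joins against 23.8% of productive joins of other IGHV1 genes, lower in 6 of 6 libraries, while among out-of-frame joins the shares were 29.8% and 29.8%. That difference was not tested.

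By the distance between distributions over all pairs of D and J genes, which is 0 for identical distributions and 1 for disjoint ones, the V genes most like IGHV1-72 among 68 with at least 1000 sequences were IGHV1-39 (0.0485), IGHV1-19, IGHV1-64, IGHV1-76 and IGHV1-12 (0.0627). The median distance was 0.109.

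Productive and out-of-frame joins of IGHV1-72 were then set side by side. IGHD1-1 was in 42.6% of productive and 45.4% of out-of-frame joins, and was lower among productive joins in 5 of 6 libraries (mean difference -3.39 points, exact permutation p = 0.0625, adjusted over 7 measures 0.219). The difference was -8.43 points with single-gene D calls (exact permutation p = 0.0938), -2.19 with V alignments of at least 150 bases and -2.17 without the 500 ng library. That library had only 34 out-of-frame joins with a D call. In other IGHV1 genes the IGHD1-1 gap was 0.0473 points. The gap of IGHV1-72 was the higher one in 3 of 6 libraries (exact permutation p = 0.25, adjusted 0.35). IGHJ2 was in 30.4% of productive and 31.3% of out-of-frame joins (exact permutation p = 0.531, adjusted 0.562). Productive joins held a mean of 7.77 N and P bases against 8.61 in out-of-frame joins, and were lower in 6 of 6 libraries (mean difference -0.696 bases ± 0.318, SD, exact permutation p = 0.03125, the smallest 6 libraries allow, adjusted 0.219). Other IGHV1 genes had a gap of -0.419 bases, and the difference between the gaps had an exact permutation p of 0.0625 (adjusted 0.146). The last V base was kept in 80.7% of productive and 71.6% of out-of-frame joins of IGHV1-72, pooled over the libraries. Productive joins lacked at most 7 V bases and out-of-frame joins at most 17. All 4598 productive joins reached V base 287, within the last codon before CDR3. A productive call may need that codon, so these values may be in part fixed by what productive means. The contrast in kept V bases was not tested and was not set against other IGHV1 genes.

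The third question was the frame in which IGHD1-1 was read. A whole IGHD1-1 has stop codons in one frame, so productive joins that use that frame must have lost them, and the shares below are in part fixed by what productive means. Of 1769 productive IGHV1-72 joins with IGHD1-1 that could be placed, 72.4% (interval 70.3 to 74.5) read it in the YYGSS frame, 23.5% in a frame with threonine, threonine, valine, valine (TTVV) and 4.07% in the frame with stop codons. Of 305 out-of-frame joins, 23.3% (18.9 to 28.3) were in the YYGSS frame, 40.3% in the TTVV frame and 36.4% in the frame with stop codons. Other IGHV1 genes had 70.6%, 24.1% and 5.31% among productive joins, and 29.0%, 39.4% and 31.6% among out-of-frame joins. The YYGSS frame was the most used frame of productive joins in both sets of V genes, and the difference between the sets was not tested.

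**Figure D4:**
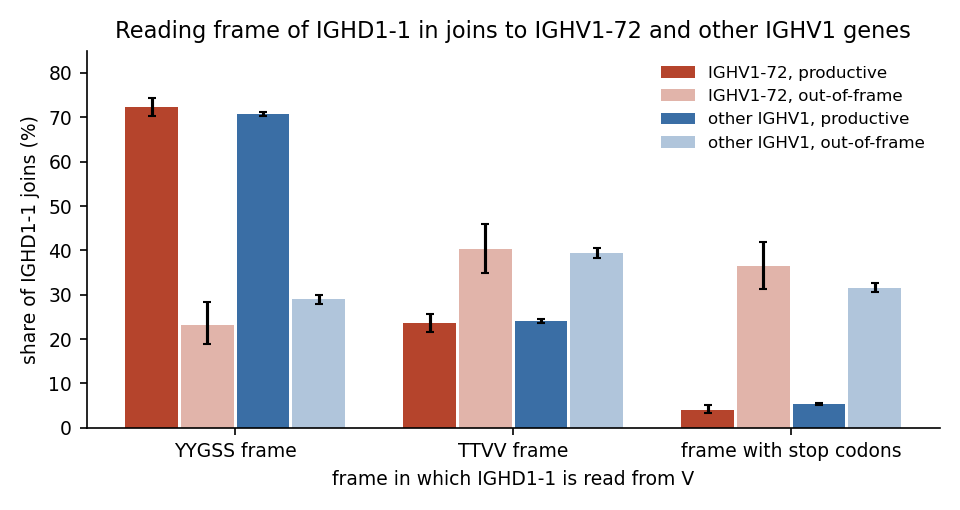
Share of IGHD1-1 joins (vertical axis, percent) in each of the 3 reading frames, for productive and out-of-frame joins of IGHV1-72 and of other IGHV1 genes; bars carry 95% Wilson intervals on pooled sequences. The YYGSS frame holds 72.4% of productive and 23.3% of out-of-frame IGHV1-72 joins.

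CDR3 of productive IGHV1-72 joins had a median of 12 amino acids, with a range of 8 to 22. Mean length was 37.9 bases against 38.0 in other IGHV1 genes, shorter in 5 of 6 libraries by a mean of 0.173 bases ± 0.223 (SD, exact permutation p = 0.0938, adjusted 0.258). Among sequences of both sets that reach base 223, as all those of IGHV1-72 do, the difference was -0.0145 bases (exact permutation p = 0.844), and against the other IGHV1 genes weighted equally it was -0.639 bases. Tyrosine was the most common residue, at 21.8% of CDR3 positions against 21.1%. CDR3 began with alanine and arginine, the residues encoded by the last bases of the gene, in 87.0% of IGHV1-72 sequences and 80.6% of other IGHV1 sequences. The ending YAMDY of IGHJ4 was in 20.7% against 18.6%, and FAY of IGHJ3 in 18.2% against 21.1%. The 4598 productive sequences held 4508 different amino acid sequences, of which 4435 were seen once.

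**Figure D5:**
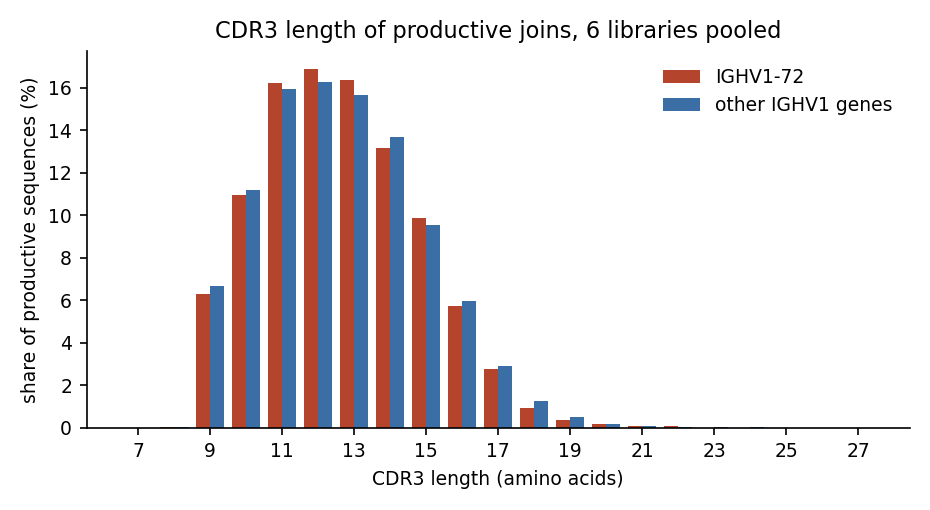
Share of productive sequences (vertical axis, percent) by CDR3 length (horizontal axis, amino acids) for IGHV1-72 and other IGHV1 genes, 6 libraries pooled. Both distributions have a median of 12 amino acids.

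Few IGHV1-72 joins recurred. Taking sequences of one J gene and identical CDR3 bases as a clone, IGHV1-72 had 5412 clones, of which 5347 were seen once and 37 (0.684%) were found in 2 or more libraries. Such counts depend on depth, which ran from 203 IGHV1-72 sequences at 500 ng to 2695 at 5 µg. They were not set against other V genes, so 0.684% cannot be read as particular to IGHV1-72. The 2 found in most libraries are shown as examples of a productive and an out-of-frame repeat, with capitals for the D bases.
Repeat in 4 libraries: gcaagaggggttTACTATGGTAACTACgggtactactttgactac
Repeat in 3 libraries: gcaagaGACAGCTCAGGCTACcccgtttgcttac
The first was productive, joined to IGHD2-1 and IGHJ2, and had 8 sequences, with 1 from the 1 µg library, 3 from 2.5 µg, 2 from 5 µg and 2 from Q5_Q5. The second was out of frame, joined to IGHD3-2 and IGHJ3, and had 5 sequences in 3 libraries. Since the labels do not say whether libraries share mice, whether such repeats are the same cells or separate joins cannot be told apart.

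The join known from antibodies against NP was looked for next. The YYGSS stretch was in 552 productive IGHV1-72 CDR3s (12.0%) and in 11.4% of those of other IGHV1 genes, higher in 4 of 6 libraries (exact permutation p = 0.594, adjusted 0.653). IGHD1-1, IGHJ2 and YYGSS came together in 142 of 4598 productive IGHV1-72 sequences (3.09%, interval 2.63 to 3.63), against 3.39% (3.28 to 3.50) of other IGHV1 genes. From 500 ng to 5 µg the libraries held 1, 14, 29 and 78 of them, and Q5_Q5 held 9 and Q5_vent 11. Their CDR3 had a median of 14 amino acids, and 34 had 13. The 9 of them that ended in YYGSSYFDY include the following, chosen as examples after their values were seen, with capitals for the bases aligned to IGHD1-1.
Join of 36 bases: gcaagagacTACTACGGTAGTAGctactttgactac
First join of 39 bases: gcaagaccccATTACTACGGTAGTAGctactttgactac
Second join of 39 bases: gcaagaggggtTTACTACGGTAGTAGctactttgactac
Join of 42 bases: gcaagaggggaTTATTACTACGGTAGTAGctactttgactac
Each had no N or P base between D and J, was seen in 1 sequence and held no V mismatch. The ctac after the capitals is found both at the end of IGHD1-1 and near the start of IGHJ2. Where D ends and J begins within that stretch cannot be told from these bases. Of the 142, 3 began with alanine, arginine and tyrosine, and none of these 3 ended in YYGSSYFDY.

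IGHV1-72 sequences were close to germline. A V mismatch was present in 347 sequences (6.32%, interval 5.71 to 6.99) against 7.25% of other IGHV1 sequences, a difference that was lower in 4 of 6 libraries (exact permutation p = 0.250, adjusted 0.442). In total there were 426 mismatches over 1090874 aligned bases, or 0.391 per 1000. Other IGHV1 genes, with their heavily mismatched sequences included, had 1.26 per 1000, and IGHV1-72 was lower in 6 of 6 libraries. Only 5 sequences (0.0911%) had 5 or more mismatches, against 1.45% of other IGHV1 sequences, lower in 6 of 6 libraries (exact permutation p = 0.03125, adjusted 0.229). Of the 1791 such sequences in other IGHV1 genes, 71.7% came from IGHV1-27 and IGHV1-87. Without those 2 genes the share in other IGHV1 genes was 0.416%, and the share with any mismatch was higher in IGHV1-72 by a mean of 0.249 points. That share counts sequences, and the median V alignment was 198 bases for IGHV1-72 against 173 for all other IGHV1 genes. The rate per aligned base was not compared without those 2 genes. Of the 54 other IGHV1 genes, 16 had a lower share with 5 or more mismatches than IGHV1-72 and 38 a higher one, with a median of 0.181%.

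Mismatches were spread along the V gene, with a rate of 0.348 per 1000 aligned bases up to base 285 and 1.34 from base 286 on, next to the join. Base 291 was highest, with 30 of 5226 sequences (0.574%), of which 16 were A291G and 11 A291C. G102A was the most frequent change at the next highest position, in 5 of 2822 sequences. Codon 33, TGG at bases 97 to 99, was covered by 2754 sequences, and 5 of them had a mismatch there. The leucine change W33L, which is G98T, was in 2 of these (0.0726%, interval 0.0199 to 0.264), 1 at 2.5 µg and 1 at 5 µg. Both were productive, used IGHJ4 rather than IGHJ2, and had no other V mismatch. The one at 2.5 µg was joined to IGHD1-1 and the one at 5 µg to IGHD2-10. The median mismatch share of single positions up to base 285 was 0.0234%, but positions differ in coverage and many had no mismatch. Near codon 33, where coverage is alike, base 92 had 0.187%, base 93 0.112%, base 95 0.110% and base 96 0.0729%. Base 98 had 0.108% over all changes, base 99 0.0719% and base 102 0.248%, while bases 94, 97, 100 and 101 had 0%. Whether G98T exceeds its surroundings was not tested.

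Between the polymerases, the share with a V mismatch was the only one of the 11 measures of IGHV1-72 joins whose interval of the difference did not include 0. The larger set of other IGHV1 genes had further intervals that excluded 0. These were IGHJ2 (-3.44 points, -4.79 to -2.095), IGHD1-1 with IGHJ2 (-1.44, -2.48 to -0.394), the productive share (1.31, 0.167 to 2.46) and the in-frame non-productive share (-0.753, -1.29 to -0.217). In Q5_Q5, 6 of 361 IGHV1-72 sequences (1.66%) had a V mismatch, against 34 of 436 (7.80%) in Q5_vent, a ratio of 0.213 (interval 0.0905 to 0.502). In other IGHV1 genes the shares were 3.67% and 6.90%, and their ratio was 0.532 (0.466 to 0.606). Sequences with 5 or more mismatches made up 1.43% and 1.44% of other IGHV1 sequences in these libraries, and 0% and 0.229% of IGHV1-72 sequences. They raise both shares of the other IGHV1 genes and draw their ratio towards 1. Among productive joins alone, the shares were 1.65% and 7.48% in IGHV1-72 and 1.935% and 5.03% in other IGHV1 genes. Whether the ratio differs between IGHV1-72 and other IGHV1 genes was not tested. Between 5 µg and 500 ng, the share of IGHV1-72 sequences with a mismatch was 6.53% and 8.87%, a ratio of 0.737 (0.463 to 1.17). Within IGHV1-72, IGHJ2 was lower at 5 µg than at 500 ng by 6.99 points, with an interval of -13.8 to -0.150 for the difference, and other IGHV1 genes were lower by 1.82 points. The intervals of the other 10 measures of IGHV1-72 in the input pair included 0. In other IGHV1 genes, the interval of the share with a V mismatch did not (-1.47 points, -2.30 to -0.641), nor did that of IGHJ2.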

How the data were processed

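Per the labels' protocols, DNA of MACS-enriched splenic B cells was extracted with a column kit. Per the submitters' processing notes, reads were processed with Bowtie2 2.3.2 and Trim Galore 0.4.4, on build mm10; no source used here names the V, D and J caller's version. The authors deposited 1 row per deduplicated sequence with gene calls, CDR3, alignment positions and lengths in bases. The deposited V and J identity values are a fraction from 0 to 1, and the authors' alignment score columns were not used.

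A sequence belonged to the V gene its call names first, whatever the allele. Mismatches came from the alignment trace column, gaps aside. Shares carry Wilson intervals and ratios of shares Katz intervals. The odds ratio carries an interval on the log scale from its counts, and differences carry normal-approximation intervals. IGHV1-72 was compared with other IGHV1 genes, and productive with out-of-frame joins, within each library, by an exact two-sided sign-flip permutation test over the 6 libraries with Benjamini-Hochberg adjustment over 11 and 7 measures. As nothing says the libraries come from separate mice, p-values measure only the spread between libraries. V genes needed 100 sequences, and stood apart at 1.5-fold with an interval excluding 1. The statistics were tested on simulated data. A count of 0 allows a share of 3 counts of the total, from 0.00267% at 5 µg to 0.0345% at 500 ng. PCR reads are not independent molecules, so intervals cover counting error only. The members, measures and lists were chosen with earlier results of these data known. Named genes are those called with IGHV1-72, its neighbours, the 5 most like it in level and in partners, all J genes and the 6 most frequent D genes. Coordinates are from RefSeq on GRCm38.p6. The software was SciPy 1.17.1, NumPy 2.4.6 and pandas 2.3.3 under Python 3.11.15, with figures from matplotlib 3.10.9.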

Additional observations from a re-analysis of the deposited data

How the results depend on the processing

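No adjusted exact permutation p passed 0.05 in any setting run. The lowest among the tests of IGHV1-72 was 0.0573, with the other IGHV1 genes weighted equally. The mean differences between IGHV1-72 and other IGHV1 genes kept their direction in 91 of 101 results under other settings and 62 of 66 with a library left out. Where they turned, N and P bases differed by 0.216 against all other V genes; CDR3 length by 0.0364 bases with single-gene V calls and 0.0665 with every call naming IGHV1-72; and the YYGSS share by -0.00487 points with V alignments of at least 150 bases. The IGHD1-1 share differed by -0.0881 points with those alignments and -0.485 with single-gene D calls, and its pairing with IGHJ2 by -0.683 with single-gene D calls and -0.215 with every naming call, when IGHJ2 itself differed by -0.191. The share with a V mismatch differed by 0.249 points without IGHV1-27 and IGHV1-87, which hold most of the heavily mismatched sequences. The settings with every naming call, without those 2 genes and with alignments that reach base 223 were chosen after seeing the data. Between productive and out-of-frame joins, leaving out unclear primer tags turned IGHJ2 to 2.54 points and its pairing with IGHD1-1 to 0.0148. The causes were not tested.

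With each library left out in turn, differences from other IGHV1 genes ran from -0.125 to 1.43 points for IGHJ2 (below 0 without 500 ng), -0.0755 to 0.292 for IGHD1-1 with IGHJ2 (below 0 without 500 ng or Q5_Q5) and -0.202 to 0.965 for YYGSS (below 0 without 1 µg). The IGHD1-1 difference ran from 0.0822 (without 5 µg) to 1.00 points (without Q5_Q5), and the productive difference from 2.37 to 3.93. With V alignments of at least 150 bases the productive difference was 1.956. Between productive and out-of-frame joins the ranges were -4.32 to -2.17 points for IGHD1-1 (smallest without 500 ng), -3.59 to 0.216 for IGHJ2 (above 0 without Q5_vent) and -2.13 to 0.0588 for V mismatches (above 0 without 500 ng). The pooled share of sequences with a V mismatch, 6.32%, was 7.76% with V alignments of at least 150 bases and a single-gene call, where more bases are aligned. No paired analysis was possible because each group has 1 library; the tests within libraries already use the library as a block. Depth limits the 500 ng library most, with 203 IGHV1-72 sequences.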
